A study of Homo sapiens with 18 samples.

Results

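The replication-dependent histone genes lie in clusters and encode the bulk histones that package new DNA. They were taken from the deposited expression table by name, as every row whose symbol starts with HIST1H, HIST2H, HIST3H or HIST4H and does not contain PS. The rule gave 76 of 56269 genes, of which 14 had a mean normalized count of at least 10 over the 18 libraries, the minimum for testing. The normalized count is the number of reads assigned to a gene, divided by a factor for the library's depth. A further 51 genes had reads but lay below that minimum, and 11 had no read in any library. GENCODE types 6 of the 76 as pseudogenes (HIST2H2BA, HIST2H3DP1, HIST2H2BC, HIST2H2BD, HIST2H2BB and HIST3H2BA), all of them below the minimum, and they are counted under the histone of their name.

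The libraries came from IMR90 cells, a human primary lung fibroblast line, sequenced as polyA RNA. A pre-incubation of 6 h was given in PBS alone or in 20 µg/ml of hyaluronan (HA) from naked mole-rat skin fibroblasts in 1 of 2 forms: cNSF, which was heated with inactive hyaluronidase, and fNSF, which active hyaluronidase had partly fragmented. The groups PBS, cNSF and fNSF received no oxidant, and the groups PBS + tBHP, cNSF + tBHP and fNSF + tBHP were then exposed to 200 µM tert-butyl hydroperoxide (tBHP), an oxidative stressor, for 1 h. Each of the 6 groups had 3 libraries, described by the study as biological replicates, and all groups were the same cell line. The tBHP-treated cells were collected 6 h after the exposure began, and the others at the end of the pre-incubation. A difference between libraries with and without tBHP thus covers the oxidant, the later collection and the change of medium, which cannot be told apart.

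Most messenger RNAs end in a poly(A) tail, but replication-dependent histone mRNAs normally end just after a short conserved stem-loop. Stem-loop-binding protein (SLBP) holds this structure, the U7 snRNP directs the cut behind it, and the resulting mRNAs build up during S phase and are degraded when DNA synthesis stops. A selection for poly(A) therefore leaves most of these mRNAs out. Some histone genes also give longer, polyadenylated transcripts that run past the stem-loop, and these are known from non-dividing cells. The values below are thus levels of whatever histone cluster RNA passed the poly(A) selection, and not of total histone mRNA. In these bulk cultures, a change in the number of S-phase cells and a change in RNA per cell cannot be told apart.

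The GENCODE release 29 transcript models of the 76 genes held 6 sequences with a stem of 6 bases that starts with GG and a loop of 4 bases. The most common, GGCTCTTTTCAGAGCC, stood in 18 genes and was taken as the consensus. With up to 3 mismatches allowed, it was found in 10 of the 14 tested genes and in 25 of the 62 others. Without mismatches, the consensus occurred in 20 of all 58721 genes (0.0341%). Below are stem-loops of 5 tested genes with 5 bases on each side, shown because they are the element by which the usual histone 3′ end is made. Capitals mark the stem-loop.
HIST1H2AC: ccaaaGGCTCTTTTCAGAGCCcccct
HIST2H2BE: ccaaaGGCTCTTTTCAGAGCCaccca
HIST1H2AG: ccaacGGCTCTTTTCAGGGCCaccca
HIST1H2BD: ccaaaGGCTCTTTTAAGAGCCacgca
HIST1H4H: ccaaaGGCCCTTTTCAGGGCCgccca
The HIST1H2AC and HIST2H2BE stem-loops matched the consensus in full, those of HIST1H2AG and HIST1H2BD had 1 mismatch each, and that of HIST1H4H had 2.

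The models of these genes did not stop there. In 9 of the 14 tested genes a model ran more than 100 bases past the stem-loop, against 16 of the 62 genes below the minimum. HIST1H2AG continued for 1761 bases, HIST2H2BE for 1729, HIST1H4H for 1655 and HIST1H2AC for 1128. A polyadenylation hexamer, AATAAA or ATTAAA, stood in the last 40 bases of a model in 10 of the 14 tested genes and in 16 of the 62 others. HIST1H2BK, HIST1H1C and HIST2H2AC were modelled without a stem-loop, as single exons of 381, 642 and 390 bases. HIST1H2BJ had none in its 3 models either. A model may stop short of the 3′ end, so a stem-loop or hexamer absent from a model may still be in the gene. The tested genes were picked by level, so these counts are a description with no test, and which 3′ end the reads came from cannot be seen in gene counts.

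All histone cluster genes together held 394 to 842 reads per library, or 0.00292% of all reads. By contrast, the replication-independent histone genes H2AFZ (histone H2A.Z) and H3F3B (histone H3.3), whose mRNAs are polyadenylated in the ordinary way, had mean normalized counts of 9761 and 9661 each. The highest histone cluster means were 83.5 for HIST1H2BK, 83.3 for the linker histone gene HIST1H1C, 64.1 for HIST1H2AC, 57.3 for HIST2H2BE, 48.2 for HIST3H2A, 41.9 for HIST1H2BH and 35.5 for HIST1H2AG. HIST1H2BD (22.3), HIST1H2BJ (21.8), HIST1H3E (14.1), HIST1H4H (13.8), HIST1H2BC (13.7), HIST2H2AC (12.9) and HIST1H2BG (11.5) followed. HIST1H3H (9.88) and HIST1H3G (8.32) lay just below the minimum. Per kb of exon, the order changed: HIST1H2BK stood at 219 normalized counts per kb, HIST1H1C at 130 and HIST3H2A at 53.9, while HIST1H2AC was at 38.4 and HIST1H2AG at 15.8. The lengths are of GENCODE models, which for HIST1H2BK and HIST1H1C hold no stem-loop, so this order depends on how far each model reaches.

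**Figure D1:**
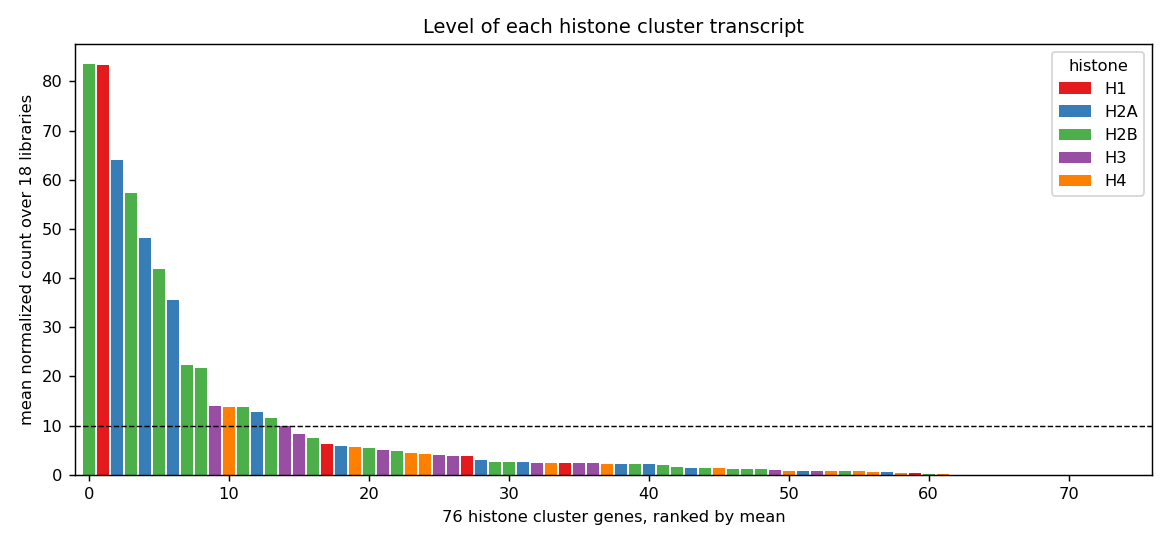
Mean normalized count over the 18 libraries (vertical axis) of the 76 histone cluster genes, ranked from highest to lowest (horizontal axis). Bar colours give the histone and the dashed line marks a mean of 10; 14 bars pass it, 11 of them for H2A or H2B.

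H2A and H2B, the histones that pair in the outer parts of the nucleosome, made up most of the signal. The 23 H2B genes held 43.9% of the summed normalized counts and the 17 H2A genes 27.5%. The 6 genes of the linker histone H1 held 14.7%, the 15 H3 genes 8.26% and the 15 H4 genes 5.76%. By cluster, 55 HIST1 genes on chromosome 6 contributed 77.5% and 16 HIST2 genes on chromosome 1 contributed 13.96%. Of the tested genes, 7 encode H2B, 4 encode H2A, and 1 each encodes H1, H3 and H4.

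The 11 genes with no read fell into sets of different kinds. HIST2H2AA3, HIST2H2AA4, HIST2H3A, HIST2H3C, HIST2H4B, HIST1H2AD and HIST1H3D shared at least 96.8% of their 100-base windows, the read length, with another annotated gene. Reads from near-identical copies or overlapping genes may be left out by gene counting, so the level of these 7 genes is not known from these data. HIST1H2AA, HIST1H2BA, HIST1H4G and HIST3H3 shared no window and were still at 0. A count of 0 allowed up to 3 reads in a library, or 2.59 to 3.42 normalized counts, by counting error only. Of the tested genes, 10 shared no window with another gene, and HIST1H2BK shared 28.4% and HIST2H2AC 17.2%.

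Before the comparisons, the libraries themselves were examined. They held 20261103 to 26287660 reads on genes. Of 10 fibroblast markers, all were tested, and their summed level was 454189 to 719276 normalized counts per library. Of 7 markers of epithelial, immune and endothelial cells, KRT5 and CDH5 were at 0 and the 7 summed to 4.14 to 17.3. Replicates differed more with tBHP than without, with a chi-square per degree of freedom of 2.72 to 64.8 between 2 libraries of a group against 1.45 to 2.55. In fNSF + tBHP, replicate 2 lay farthest from the other two (29.3 and 64.8), and replicates 1 and 3 were closer to each other (12.4). Replicate 3 of that group weighed most on the counts of genes that involve fNSF + tBHP and another group with tBHP: without it, the number of all genes past the threshold went from 19 to 4024 for fNSF against PBS after tBHP, and from 0 to 5586 for cNSF against fNSF after tBHP. Calls that change without either of these 2 libraries are given with and without it.

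The question put to the tBHP comparison was how the histone cluster transcripts differed after exposure to the oxidant, for each pre-incubation. Differences were tested with limma on log2(normalized count + 1) over 13686 genes, with Benjamini-Hochberg adjustment at a threshold of 0.05. They understate the change of low genes. After PBS, 3 of the 14 transcripts passed, HIST1H2AG, HIST1H2AC and HIST1H2BC, and all were lower with tBHP. This was a share of 21.4%, against 51.1% of all tested genes (26.9% lower, 24.2% higher). After cNSF, 3 transcripts were lower (HIST1H2AG, HIST1H2AC, HIST1H2BJ) and none was higher, against 50.8% of all genes called and 26.8% lower. After fNSF, 5 were lower (HIST1H2AG, HIST1H2AC, HIST1H2BJ, HIST1H2BD, HIST1H2BK) and none was higher, a share of 35.7% against 41.9% of all genes called and 22.7% lower. These shares were not tested against each other. The histone transcripts carried more error, with a median standard error of 0.29 against 0.13 over all genes.

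The direction was mostly downward. The log2 difference was negative in 13 of 14 transcripts after PBS, 10 after cNSF and 12 after fNSF, with medians of −0.55, −0.25 and −0.56. The medians over all tested genes were 0.0043, −0.00053 and −0.034. The 3 libraries with tBHP lay entirely below the 3 without in 6 transcripts after PBS, 3 after cNSF and 6 after fNSF, where 32.0%, 32.3% and 26.2% of all genes did so. They lay entirely above in 1 transcript after PBS (HIST3H2A), where 31.8% of all genes did so, 1 after cNSF (HIST2H2AC) and 0 after fNSF. The rule did not use these values, and the medians describe only the genes that passed the level minimum.

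**Figure D2:**
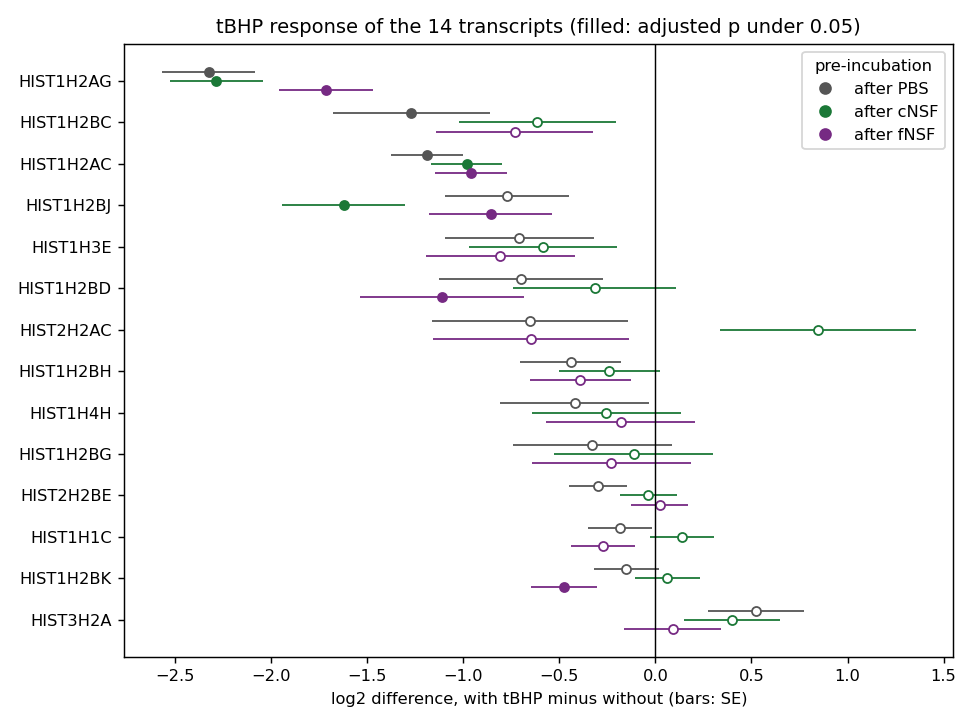
Log2 difference with tBHP minus without (horizontal axis, bars are SE) of the 14 tested transcripts after PBS, cNSF or fNSF. Filled points pass an adjusted p of 0.05 in limma; HIST1H2AG lies farthest left, from −2.33 to −1.71.

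HIST1H2AG, which encodes a core histone H2A, had the largest response of the 14. Its normalized counts were 55.0, 54.1 and 51.0 in PBS, 56.3, 48.9 and 66.2 in cNSF and 74.5, 57.2 and 56.8 in fNSF. With tBHP they were 12.5, 8.71 and 8.75 after PBS, 15.8, 11.2 and 7.12 after cNSF and 17.5, 17.0 and 20.5 after fNSF. The 9 libraries with tBHP all lay below the 9 without, and the mean over libraries with tBHP was 22.9% of the mean without. In limma, the log2 difference was −2.33 ± 0.24 (SE, adjusted p = 4.8e-07) after PBS, −2.28 ± 0.24 (adjusted p = 6.5e-07) after cNSF and −1.71 ± 0.24 (adjusted p = 1.9e-05) after fNSF. Among the 13686 genes it was the 29th most negative after PBS, the 22nd after cNSF and the 70th after fNSF. It passed under each of the 16 alternative settings run for each of the 3 responses.

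HIST1H2AC, another H2A gene, behaved alike at a higher level. It had 85, 87.7 and 88.2 normalized counts in PBS, 78.2, 71.4 and 78.6 in cNSF and 93.2, 97.6 and 96.0 in fNSF. With tBHP it had 49.9, 40.3 and 26.3 after PBS, 32.7, 36.5 and 45.7 after cNSF and 52.6, 44.7 and 49 after fNSF. Again no library with tBHP reached the lowest without it. The limma log2 differences were −1.19 ± 0.19 (adjusted p = 4.2e-05), −0.98 ± 0.19 (adjusted p = 0.00029) and −0.96 ± 0.19 (adjusted p = 0.00045) after PBS, cNSF and fNSF. All 17 alternative settings of each response kept it past the threshold.

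HIST1H2BJ and HIST1H2BC encode H2B, and each faces an H2A gene across a short shared promoter. HIST1H2BJ had 35.7, 26.1 and 32.9 normalized counts in PBS, 33.4, 33.2 and 28.9 in cNSF and 20.6, 22.7 and 30.7 in fNSF. It had 23.8, 10.9 and 21.9 after PBS with tBHP, 7.38, 9.13 and 13.2 after cNSF with tBHP, and 14.9, 18.1 and 7.97 after fNSF with tBHP. Within each pre-incubation the groups did not overlap. In limma the log2 difference was −1.62 ± 0.32 after cNSF (adjusted p = 0.00044) and −0.86 ± 0.32 after fNSF (adjusted p = 0.040). It passed after cNSF in 16 of 16 alternative settings and after fNSF in 9 of 16, and its highest adjusted p after fNSF was 0.20 (limma, without fNSF + tBHP replicate 3). The value after PBS was −0.77 ± 0.32 and missed the threshold (limma, adjusted p = 0.053), but it passed in 6 of 16 alternative settings, DESeq2 among them (adjusted p = 0.048). HIST1H2BC had 14.5, 18.7 and 14.7 in PBS and 11.3, 5.44 and 3.28 in PBS + tBHP. That log2 difference of −1.27 ± 0.41 (limma, adjusted p = 0.015) lost its call without PBS replicate 2 (adjusted p = 0.055), without PBS + tBHP replicate 3 (adjusted p = 0.084) or with no minimum on the level (adjusted p = 0.0501). It had 10.5, 16.6 and 18.6 in cNSF, 15.8, 7.10 and 7.12 in cNSF + tBHP, 13.7, 30.5 and 21.4 in fNSF and 12.3, 15.96 and 9.11 in fNSF + tBHP, groups that overlapped. Its log2 differences after cNSF and fNSF, −0.62 ± 0.41 and −0.73 ± 0.41, did not pass.

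The 2 remaining calls were both after fNSF, where HIST1H2BD passed in 10 of 16 alternative settings and HIST1H2BK in 10 of 17. HIST1H2BD (H2B) had 39.2, 29.6 and 28 normalized counts in fNSF and 23.7, 11.7 and 10.3 in fNSF + tBHP, a log2 difference of −1.11 ± 0.43 (limma, adjusted p = 0.044). In PBS it had 24.1, 22.4 and 25.1, and in PBS + tBHP 19.3, 5.44 and 26.3, a group that spanned both ends. In cNSF it had 23.9, 21.5 and 28.9, and in cNSF + tBHP 22.1, 12.2 and 27.4. Its log2 difference of −0.70 after PBS passed in 1 of 16 alternative settings, and that of −0.32 after cNSF in 0 of 16. HIST1H2BK (H2B) had 83.4, 91.6 and 96.9 in fNSF and 75.4, 56.4 and 63.8 in fNSF + tBHP, a log2 difference of −0.48 ± 0.17 (limma, adjusted p = 0.032). After PBS its 3 values went from 85, 72.8 and 91.7 to 93.1, 65.3 and 67.8, and after cNSF from 99.2, 79.2 and 94.1 to 88.5, 82.2 and 116. Without fNSF replicate 2 or without fNSF replicate 3, only HIST1H2AG and HIST1H2AC passed in this response. Without fNSF + tBHP replicate 3, the passing transcripts were HIST1H2AG, HIST1H2AC and HIST1H3E, and without replicate 2 of that group they were HIST1H2AG, HIST1H2AC and HIST1H2BJ.

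**Figure D3:**
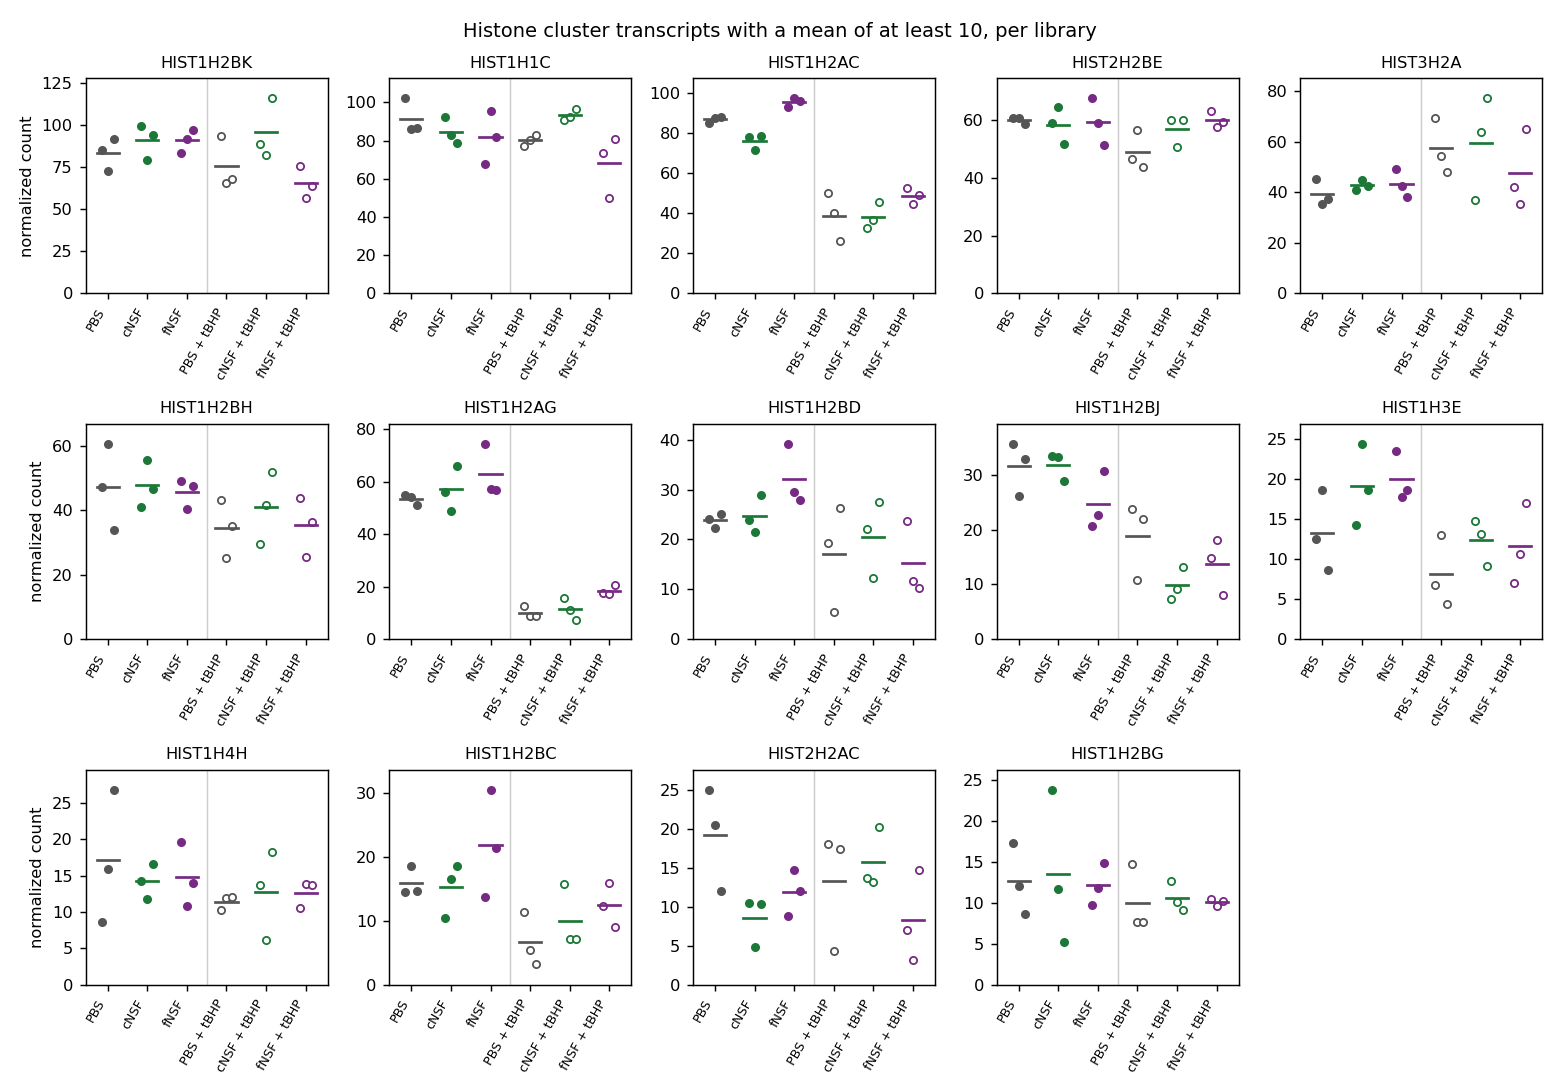
Normalized count (vertical axis, from 0) in each library of the 14 tested transcripts, by group (horizontal axis). Points are single libraries, filled without tBHP and open with it, and lines are group means of 3 libraries; HIST1H2AG and HIST1H2AC have no overlap between filled and open points, whereas those of HIST1H2BK, HIST1H1C and HIST2H2BE overlap after 2 of the 3 pre-incubations each.

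The other abundant transcripts did not pass after any pre-incubation. HIST1H1C, which encodes linker histone H1.2, had 102, 85.8 and 86.5 normalized counts in PBS, 92.6, 83.1 and 78.6 in cNSF and 67.7, 95.6 and 82.0 in fNSF. With tBHP it had 77.2, 80.6 and 83.2 after PBS, 90.7, 92.3 and 96.6 after cNSF and 73.7, 49.996 and 80.9 after fNSF, and none of its differences (−0.18, 0.14 and −0.27 on the log2 scale) passed. Its libraries with tBHP lay entirely below those without after PBS and overlapped them after cNSF and fNSF. HIST2H2BE (H2B) had 60.8, 60.7 and 58.8 in PBS, 59.2, 64.5 and 51.7 in cNSF and 67.7, 59.1 and 51.2 in fNSF. With tBHP it had 46.5, 56.6 and 43.8, then 60.1, 50.7 and 59.97, then 63.1, 57.4 and 59.2, in the same order. Here too the groups were apart after PBS and overlapped after cNSF and fNSF. Its log2 differences of −0.30, −0.036 and 0.022 did not pass, although without PBS + tBHP replicate 2 the difference after PBS was −0.41 and did (limma, adjusted p = 0.045).

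HIST3H2A, an H2A gene of the small cluster on chromosome 1, had positive differences in all 3 responses, although the one after fNSF turned negative in some alternative settings. It had 45.4, 35.5 and 37.2 normalized counts in PBS and 69.2, 54.4 and 48.1 in PBS + tBHP, which did not overlap, where 31.8% of all genes lay entirely higher. In cNSF it had 41, 45.0 and 42.4, and in cNSF + tBHP 36.9, 63.9 and 77.3. In fNSF it had 49, 42.4 and 38.2, and in fNSF + tBHP 42.1, 35.1 and 64.9. The log2 differences were 0.52 ± 0.25 (limma, adjusted p = 0.091), 0.40 ± 0.25 and 0.09 ± 0.25, so a rise was not shown. Over 16 alternative settings the difference after cNSF ran from 0.012 with GC and length trends removed to 0.70 without cNSF + tBHP replicate 1, the 1 setting in which it passed (limma, adjusted p = 0.021). The difference after fNSF ran from −0.16 to 0.28, turning negative without fNSF + tBHP replicate 3 and with GC and length trends removed.

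HIST1H2BH (H2B) had 47.3, 60.7 and 33.7 normalized counts in PBS, 41, 55.7 and 46.5 in cNSF and 49, 40.4 and 47.5 in fNSF. With tBHP it had 43.1, 25.0 and 35.0 after PBS, 29.5, 41.6 and 51.8 after cNSF and 43.8, 25.5 and 36.4 after fNSF. Each pair of groups overlapped, and the differences of −0.44, −0.24 and −0.39 on the log2 scale did not pass. HIST1H3E, the most abundant H3 transcript here, had 12.6, 18.7 and 8.65 in PBS, 14.3, 24.4 and 18.6 in cNSF and 23.5, 17.7 and 18.6 in fNSF. With tBHP it had 6.81, 13.1 and 4.38, then 14.8, 13.2 and 9.15, then 7.02, 10.6 and 17.1, in the same order. Its log2 differences of −0.71, −0.58 and −0.81 did not pass, although the groups were apart after fNSF. The last did pass without fNSF + tBHP replicate 3 (−1.11, limma, adjusted p = 0.040) and the one after PBS did without PBS + tBHP replicate 2 (−1.08, limma, adjusted p = 0.030). The responses of HIST1H4H (−0.42, −0.26 and −0.18), HIST1H2BG (−0.33, −0.11 and −0.23) and HIST2H2AC (−0.65, 0.85 and −0.65) did not pass either. At means of 11.5 to 13.8 their standard errors were 0.39 to 0.51, and differences of that order did not pass here. After cNSF, however, the libraries of HIST2H2AC with tBHP lay entirely higher (13.2 to 20.3 against 4.89 to 10.5).

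The transcripts differed in base composition. HIST1H2BK, HIST1H1C and HIST2H2AC are rich in G and C (61.2%, 57.5% and 62.8% of exon bases), while HIST1H2AC and HIST1H2BH are not (42.0% and 41.6%). When a trend of each library with GC content and transcript length was removed, both together, 6 transcripts were lower after PBS instead of 3, with HIST1H2BJ, HIST1H2BK (−0.43, limma, adjusted p = 0.023) and HIST1H1C (−0.44, limma, adjusted p = 0.0094) added. After cNSF the number stayed at 3, and after fNSF it was 6. No transcript was called higher in those fits.

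The summed level of all 76 genes was lower with tBHP in every library. It was 727 to 788 normalized counts over the 9 libraries without tBHP and 419 to 680 over the 9 with it. The mean fell from 741 ± 19.4 to 538 ± 70.7 after PBS (SD, n = 3), from 736 ± 11.2 to 615 ± 56.9 after cNSF and from 780 ± 7.15 to 513 ± 81.7 after fNSF. This left 72.7%, 83.5% and 65.7% of the level without tBHP. No test was run on these sums, in which a few abundant transcripts weigh most. Without HIST1H2AG and HIST1H2AC, 81.6%, 93.7% and 71.7% were left, and the libraries with tBHP still lay entirely below those without after PBS (420 to 548 against 589 to 623) and fNSF (357 to 499 against 620 to 626). After cNSF they overlapped (526 to 627 against 582 to 628).

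By histone, the H2A and H3 sums with tBHP lay entirely below those without within each pre-incubation. The 17 H2A genes summed to 198 to 250 without tBHP and to 104 to 169 with it, and 59.0%, 73.0% and 56.1% of the level was left after PBS, cNSF and fNSF. Without HIST1H2AG and HIST1H2AC, the other 15 H2A genes together had 101%, 138% and 84.3% of their level. This sum includes HIST3H2A, whose mean went from 39.3 to 57.3 after PBS, 42.8 to 59.4 after cNSF and 43.2 to 47.4 after fNSF. The sum therefore does not show how the rest of the 15 changed. H2B sums were 306 to 344 and 191 to 318, with 76.6%, 85.9% and 71.7% left, and the groups overlapped after cNSF only. H3 sums were 50.2 to 63.5 without tBHP against 31.8 to 42.5 with it after PBS, 64.9 to 69.4 against 42.6 to 55.9 after cNSF and 68.0 to 85.3 against 20.2 to 60.4 after fNSF. This left 65.0%, 74.8% and 47.4% (31.0% in the last without fNSF + tBHP replicate 3). For H4, 76.8%, 72.0% and 71.4% was left, with overlap after PBS and cNSF. For H1, 93.1%, 109% and 80.4% was left, with overlap after PBS and fNSF, while after cNSF the libraries with tBHP lay entirely higher. The 62 genes below the minimum summed to 135 to 177 without tBHP and 49.996 to 138 with it, and 74.3%, 84.3% and 52.5% was left, with overlap after cNSF only.

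**Figure D4:**
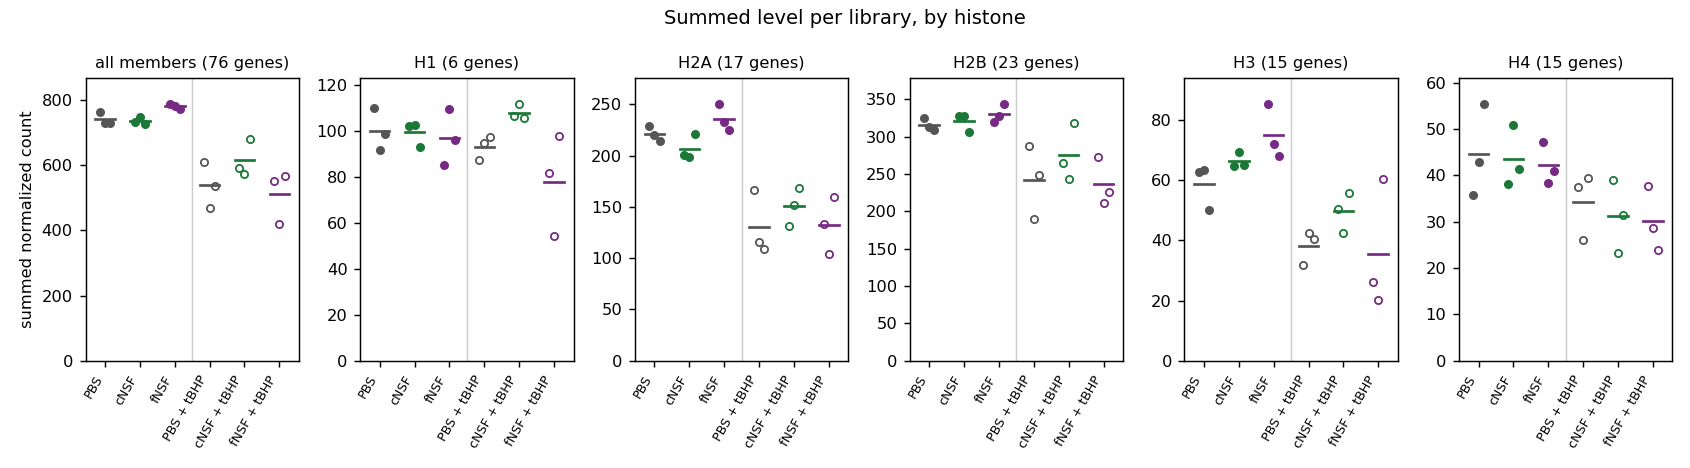
Summed normalized count per library (vertical axis, from 0) of all 76 genes and of the genes of each histone, by group (horizontal axis). Points are libraries, filled without tBHP and open with it, and lines are means of 3; within each pre-incubation, open points lie below the filled points for the whole set, H2A and H3, and for H2B they do so after PBS and fNSF but not after cNSF.

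Many H2A and H2B genes stand head to head, so that 1 short stretch of DNA serves as promoter for both. In the GENCODE models, 14 pairs of cluster genes had start sites facing away from each other within 1000 bases, and 13 of these joined an H2A and an H2B gene. In 2 of the 13 the H2B gene was a pseudogene, HIST2H2BC or HIST2H2BD. In 3 pairs both genes were tested. In these models HIST1H2BJ and HIST1H2AG lie 291 bases apart (GRCh38, chromosome 6, starts at 27132750 and 27133042), HIST1H2BC and HIST1H2AC 218 bases apart (chromosome 6, 26123926 and 26124145), and HIST2H2BE and HIST2H2AC 322 bases apart (chromosome 1, 149886652 and 149886975). The stretches printed below come from RefSeq windows, so their lengths differ from these distances.

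The promoters of both pairs with called falls are shown with that of HIST2H2BE, which was not called, and that of HIST1H1C, which has no divergent neighbour among the tested genes. RefSeq promoter windows were given for 56 of the 76 genes, of which 9 were tested. The stretches are the bases before the start site on the strand of the named gene, less any base of the neighbouring gene. Capitals mark 3 motifs on either strand: the octamer ATTTGCAT, known as the site of OCT1 in H2B promoters, the CCAAT box and the TATA element TATAAA, which can overlap its own reverse complement.
HIST1H2AG: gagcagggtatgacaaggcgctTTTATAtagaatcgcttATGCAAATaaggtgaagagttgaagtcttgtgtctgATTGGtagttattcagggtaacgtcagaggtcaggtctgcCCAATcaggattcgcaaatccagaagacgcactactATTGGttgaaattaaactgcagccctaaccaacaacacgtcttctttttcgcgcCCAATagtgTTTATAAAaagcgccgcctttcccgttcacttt
HIST1H2AC: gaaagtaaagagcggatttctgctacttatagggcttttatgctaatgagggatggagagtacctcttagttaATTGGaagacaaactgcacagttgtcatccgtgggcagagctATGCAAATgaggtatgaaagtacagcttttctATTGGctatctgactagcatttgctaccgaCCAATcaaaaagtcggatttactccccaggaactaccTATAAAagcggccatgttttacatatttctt
HIST2H2BE: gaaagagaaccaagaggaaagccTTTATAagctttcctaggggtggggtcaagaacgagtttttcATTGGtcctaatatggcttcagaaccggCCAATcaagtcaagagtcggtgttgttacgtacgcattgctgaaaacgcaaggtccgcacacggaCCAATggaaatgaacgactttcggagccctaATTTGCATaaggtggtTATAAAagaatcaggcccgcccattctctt
HIST1H1C: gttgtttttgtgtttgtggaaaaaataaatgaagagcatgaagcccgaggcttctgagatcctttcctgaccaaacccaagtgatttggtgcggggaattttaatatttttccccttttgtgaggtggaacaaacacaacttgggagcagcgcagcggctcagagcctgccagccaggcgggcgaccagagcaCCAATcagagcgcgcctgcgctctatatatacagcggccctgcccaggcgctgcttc
The stretches are chr6:27132796-27133042, plus strand, chr6:26123927-26124171, plus strand, chr1:149886683-149886917, minus strand, and chr6:26056471-26056720, minus strand, in RefSeq's GRCh38.p14. All 3 divergent promoters held the octamer and that of HIST1H1C did not.

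Over the 56 promoter windows of 300 bases, the octamer was found in 19, all of H2A or H2B genes (19 of 27), and in none of the 29 windows of H1, H3 and H4 genes. It occurred in 1.77% of 35116 promoters in the table. The CCAAT box was in 46 of the 56 (34.6% of all promoters) and TATAAA in 37 (11.5% of all promoters). A match of letters is a description and not evidence of binding.

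Across the HIST1H2BJ and HIST1H2AG pair, both transcripts had negative responses, of −0.77 and −2.33 after PBS, −1.62 and −2.28 after cNSF and −0.86 and −1.71 after fNSF (log2 differences). The HIST1H2BC and HIST1H2AC pair gave −1.27 and −1.19, −0.62 and −0.98, and −0.73 and −0.96. HIST2H2BE and HIST2H2AC, under the third promoter, gave −0.30 and −0.65, −0.036 and 0.85, and 0.022 and −0.65, none of which passed. In the other pairs with a tested gene, the neighbours were below the minimum. HIST1H2AH, opposite HIST1H2BK, had a mean of 1.46, HIST3H2BB, opposite HIST3H2A, had 1.97, and HIST1H2AE, opposite HIST1H2BG, had 5.95. HIST1H2BK and HIST1H2AH, modelled with exons of 381 and 387 bases, differed 57.1-fold in mean normalized count over the 18 libraries of this poly(A)-selected RNA. Their means were 88.2 and 2.48 without tBHP and 78.7 and 0.44 with it, and HIST1H2AH had 27 reads in all. HIST1H2BK also shared 28.4% of its windows with another gene, and HIST1H2AH shared none.

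**Figure D5:**
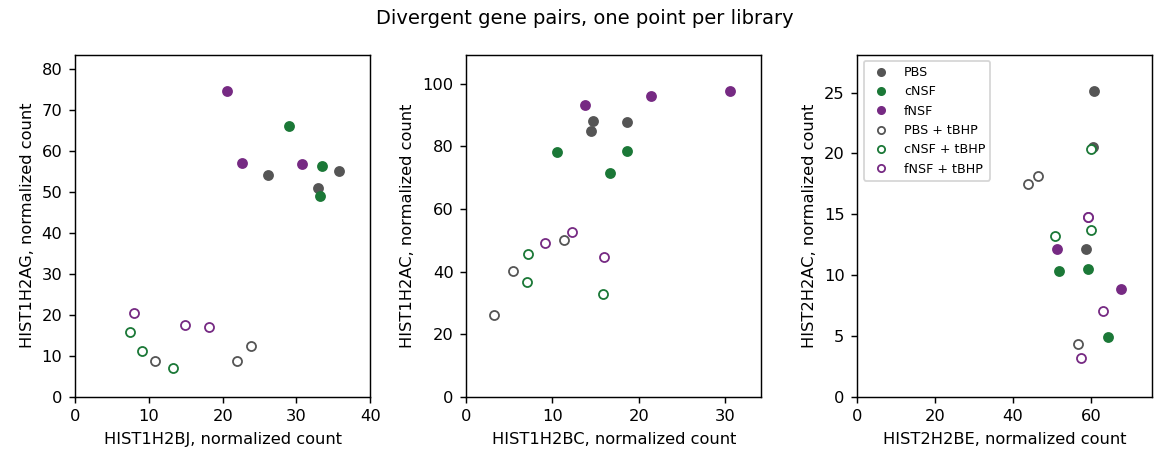
Normalized counts of the 2 genes of each divergent pair against each other, 1 point per library, filled without tBHP and open with it. Open points sit lower for HIST1H2AG and HIST1H2AC, at 7.12 to 20.5 and 26.3 to 52.6, and mix with filled points for HIST2H2BE and HIST2H2AC.

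The HA comparisons asked whether the form of HA changed these transcripts, and whether it changed the response to tBHP. None of the 14 passed in cNSF against PBS, fNSF against PBS or cNSF against fNSF, with or without tBHP, and none passed in the 3 tests of the difference in response. In limma, the number of all genes past the threshold was 0 in these 9 comparisons (0.0%) except 19 (0.139%) in fNSF against PBS after tBHP. At an unadjusted p under 0.05, the histone transcripts numbered 1, 0 and 0 without tBHP, 1, 2 and 3 after it, and 0, 0 and 1 in the differences of response. edgeR and DESeq2 also called 0 of the 14 in each of the 9, but over all genes they called more. In fNSF against PBS after tBHP, edgeR called 36 (0.263%) and DESeq2 442 (3.23%), and in cNSF against fNSF after tBHP DESeq2 called 923 (6.74%). DESeq2 called 5 (0.0365%) in cNSF against PBS after tBHP, 3 (0.0219%) in fNSF against PBS without tBHP and 6 (0.0438%) in the difference of response between fNSF and PBS.

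The smallest p-values lay in the libraries with tBHP. HIST1H2AG was higher in fNSF + tBHP than in PBS + tBHP by 0.83 ± 0.24 on the log2 scale (95% interval 0.32 to 1.34, limma, adjusted p = 0.11). Its cNSF minus fNSF difference with tBHP was −0.70 (−1.22 to −0.19, limma, adjusted p = 0.098). HIST1H2BK was higher in cNSF + tBHP than in fNSF + tBHP by 0.54 (0.18 to 0.90, limma, adjusted p = 0.098) and HIST1H1C by 0.47 (0.12 to 0.82, limma, adjusted p = 0.098). These intervals are not adjusted for the number of genes. Without fNSF + tBHP replicate 3, HIST1H2AG passed in fNSF against PBS (0.75, limma, adjusted p = 0.048), and HIST1H1C (0.61, adjusted p = 0.012), HIST2H2AC (1.505, adjusted p = 0.028) and HIST1H2BK (0.53, adjusted p = 0.038) passed in cNSF against fNSF. In those fits, 4024 and 5586 of all 13686 genes passed as well.

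The difference of the tBHP response itself between cNSF and fNSF was −0.57 for HIST1H2AG (95% interval −1.29 to 0.15), −0.76 for HIST1H2BJ (−1.72 to 0.19) and 0.54 for HIST1H2BK (0.03 to 1.05), with an adjusted p of 0.71 for each in limma. HIST2H2AC had the widest contrast, at 1.49 (−0.03 to 3.01). Its values were 10.5, 4.89 and 10.3 in cNSF, 13.7, 13.2 and 20.3 in cNSF + tBHP, 8.83, 14.8 and 12.1 in fNSF and 7.02, 3.19 and 14.8 in fNSF + tBHP. The HA comparisons share libraries with one another, and each is therefore given by its own values. These intervals are wide, and equal responses after both forms of HA were not shown.

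The machinery that makes and controls histone mRNA was measured in the same libraries. Of 26 genes for its transcription, processing and decay, 13 were lower and 4 higher after PBS (median −0.23), 13 and 3 after cNSF and 12 and 3 after fNSF. For this list and the next 3, the share of all tested genes called lower was 26.9%, 26.8% and 22.7% after PBS, cNSF and fNSF. The share called in either direction was 51.1%, 50.8% and 41.9%, and no list was tested against these shares. SLBP went from 1960 ± 70.0 to 1200 ± 63.5 normalized counts after PBS (SD, n = 3), a log2 difference of −0.71 ± 0.07 (limma, adjusted p = 2.3e-07). LSM11, a subunit particular to the U7 snRNP, fell by 0.88 on the log2 scale (adjusted p = 4.9e-06), and CASP8AP2 (FLASH), which joins U7 to the cleavage factors, fell by 0.78 (adjusted p = 0.00045). ERI1, an exonuclease that trims histone mRNA ends, fell by 0.94 (adjusted p = 1.8e-06), and CCNE2, a cyclin E that activates CDK2 at S-phase entry, fell by 1.55 (adjusted p = 2.8e-07). ZNF473, a U7-associated zinc finger protein, rose by 0.36 (adjusted p = 0.0015). NPAT, the coactivator of histone gene transcription, was at −0.33 (adjusted p = 0.076), and LSM10, the partner of LSM11, at 0.08 (adjusted p = 0.55), so neither passed.

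Of 26 genes of S phase, 16 were lower and 2 higher after PBS (median −0.30), 15 and 3 after cNSF and 18 and 1 after fNSF. The largest were CCNE2, which is also in the list above, UNG, a repair glycosylase, at −1.14 (limma, adjusted p = 3.0e-09), and CCNA2, cyclin A2, at −1.10 (adjusted p = 9.0e-10). Whether the share of cells in S phase moved with the histone transcripts was not tested.

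Of 12 replication-independent histone genes, 11 were tested, with 5 lower and 1 higher after PBS (median −0.31), 3 and 1 after cNSF and 6 and 1 after fNSF. CENPA, the centromeric H3, was at −0.63 ± 0.09 (limma, adjusted p = 1.6e-05), H2AFZ at −0.47 ± 0.07 (adjusted p = 3.8e-05) and H2AFY2, a macroH2A, at −0.39 ± 0.08 (adjusted p = 0.00052). Of 22 histone chaperone and assembly genes, 5 were lower and 2 higher after PBS (median −0.093), 5 and 5 after cNSF and 6 and 4 after fNSF. The chaperone genes called after PBS were 7 of 22, against 51.1% of all genes. HAT1, which acetylates new H4, was at −1.06 ± 0.09 (limma, adjusted p = 2.3e-08), ANP32E, an H2A.Z chaperone, at −0.82 ± 0.15 (adjusted p = 0.00017) and ATRX, a chromatin remodeller that works with the H3.3 chaperone DAXX, at −0.47 ± 0.18 (adjusted p = 0.032). None of the genes of these 4 lists passed in the HA comparisons, with the exception of HAT1 in fNSF against PBS after tBHP.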

How the data were processed

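RNA-seq data of 18 IMR90 libraries in 6 groups of 3 were used. The authors made single-end reads of 100 nt from polyA RNA; the submitters' processing notes name Trimmomatic 0.32, STAR 2.5.2b, featureCounts from Subread 1.5.0-p3, DESeq2 and GRCh38.p7. The annotation release, the strand setting and the treatment of shared reads are not given in the sources used here. The values deposited by the authors are a signal, gene counts divided by DESeq2 size factors. The authors also deposited p-value and q-value columns of their own comparison, which were not used.

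Whole reads were recovered from the steps of the deposited values (100% of values whole, tolerance under 0.0001 of a read), giving 20261103 to 26287660 reads per library. limma 3.58.1 (R 4.3.3; trend) was fitted to log2(value + 1) with 1 coefficient per group over the 13686 genes with a mean of at least 10, two-sided, with Benjamini-Hochberg adjustment over all of them. Standard errors are limma's. Alternatives were other pseudocounts, no minimum, a mean of at least 50, quantile normalization, a replicate block, removal of GC and length trends (GC known for 91.4% of tested genes), only the groups compared, edgeR 4.0.16, DESeq2 1.42.0 on the recovered reads, and each library left out. Gene models, lengths and shared 100-base windows came from GENCODE release 29, matched by symbol (76 of 76), and promoters from RefSeq.

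Replicates are biological according to the study; replicate pairs differed beyond sampling noise in all 18 pairs (chi-square per degree of freedom 1.45 to 64.8). Named were all tested genes, with values in every library for the 10 highest and the largest changes past the threshold; from each other list, the 3 largest changes past the threshold after PBS and 6 chosen genes of the histone mRNA machinery. The members and lists were chosen with earlier results of these data known. Intervals and limits cover counting error or the spread between libraries only.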

Additional observations from a re-analysis of the deposited data

How the results depend on the processing

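HIST1H2AG and HIST1H2AC kept their call and direction in all 3 tBHP responses under every alternative that tested them; a mean of at least 50 left HIST1H2AG out. The number of transcripts called after PBS, 3, was 4 in DESeq2 and with a pseudocount of 5, 5 with no minimum, 1 with a mean of at least 50, and 6 with GC and length trends removed, with or without the replicate block. After cNSF, 3 became 5 with no minimum and 1 at a mean of at least 50. After fNSF, 5 became 7 with no minimum, 2 at a mean of at least 50, 3 in edgeR and 3 with only the groups compared. Fewer genes were tested at the higher minimum and more with none; for the other changes the cause was not tested. With 1 library left out, the counts ranged from 2 to 5 after PBS, 3 to 4 after cNSF and 2 to 4 after fNSF, from 0 to 1 for fNSF against PBS after tBHP and from 0 to 3 for cNSF against fNSF after tBHP; both of the last ranges reached their top without fNSF + tBHP replicate 3. A count of 0 in the other HA comparisons and response differences did not change in any setting run. RPM in place of the deposited scaling put the summed level left after tBHP at 0.695, 0.797 and 0.642 of that without it, after PBS, cNSF and fNSF, against 0.727, 0.835 and 0.657.

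The replicate block gave 3, 3 and 5 calls, as without it, and 0 in the 9 other comparisons. Over all genes it moved fNSF against PBS after tBHP from 19 to 61. The same count was 65 with GC and length trends removed, 103 with the block added to that, 36 in edgeR, 442 in DESeq2, 30 at a mean of at least 50, 3 with no minimum and 0 with only the groups compared. It was 171 without PBS + tBHP replicate 2, 4 without PBS + tBHP replicate 1 and 4024 without fNSF + tBHP replicate 3. For cNSF against fNSF, 0 became 923 after tBHP in DESeq2 and 980 without tBHP with only the groups compared. The cause was not tested. Deviations of libraries with the same number correlated at −0.12 to 0.33, so the numbers were not taken as pairs. Depth and the spread between libraries both limit the precision, and their parts were not separated. The 14 transcripts had 209 to 1508 reads each over all 18 libraries.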

Other observations

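The fit without a minimum ran over the 31441 genes with a read in any library, 65 of them histone cluster genes. Among those under the minimum, it called some that the report does not count. HIST1H4I, an H4 gene with 67 reads over the 9 libraries without tBHP and 15 over the 9 with it, was at −1.93 after PBS (limma without a minimum, adjusted p = 0.022) and at −2.01 after fNSF (adjusted p = 0.022). HIST1H3G, an H3 gene with 110 and 42 reads, was at −2.07 after PBS (adjusted p = 0.016). HIST1H2AE, an H2A gene with 70 and 39 reads, was at −1.47 after PBS (adjusted p = 0.018) and −1.29 after fNSF (adjusted p = 0.048), but after cNSF it had 20 reads without tBHP and 25 with it. After fNSF, HIST1H2AK, HIST1H2AH and HIST1H2BN were at −1.86, −1.74 and −1.68, while HIST1H2AK had 6 reads in cNSF and 12 in cNSF + tBHP. After cNSF, HIST1H4F was at −1.43, and HIST2H2AB, with a mean of 0.78 normalized counts, was at 1.34 (adjusted p = 0.049), the only histone cluster transcript called higher in any tBHP response of that fit. These genes were named after their values were seen, and with so few reads each difference rests on single reads in several libraries.

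HIST2H4A had 12 reads and HIST2H4B none, although 97.1% of the 100-base windows of HIST2H4B occur in another gene, HIST2H4A being the one that shares most of them.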
